A study of Mus musculus with 24 samples.

Results

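Parvalbumin (PV) and vasoactive intestinal peptide (VIP) interneurons were compared through all 6 libraries labelled PV and all 6 labelled VIP, 12 of the 24 bulk RNA-seq libraries of the series. The members were chosen by the subtype label alone. The remaining libraries carry the labels SST (6) and EXC (6). They entered the model, where they add to the filter, the scaling, the sex term and the estimate of spread, and they appear below only where a PV or VIP value needs a reference. All cells came from the cortex of adult mice, were dissociated with papain, and were sorted live by fluorescence as DAPI-negative and GFP-positive or tdTomato-positive, depending on the reporter line. The labels do not spell out PV and VIP, and they give neither the driver of each reporter, the strain and exact age, nor the number of animals behind a library. PV has 3 male and 3 female libraries and VIP 2 male and 4 female. Each library was treated as 1 replicate, numbered in deposition order, and p-values reflect the spread among these libraries only, which may in part be technical.

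The groups never share a sequencing pool. All 6 PV libraries lie in POOL6188, together with 5 EXC libraries. VIP replicates 1 and 3 lie in POOL7098 with 5 SST libraries, and VIP replicates 2, 4, 5 and 6 lie in POOL7099 with 1 EXC library. Subtype and pool therefore cannot be told apart from the PV and VIP libraries alone, and this holds for every difference given here. Each VIP pool could still be set against PV on its own, and the pools could be compared within VIP.

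PV and VIP neurons are separate classes of cortical inhibitory neuron. PV cells arise in the medial ganglionic eminence of the embryo, fire long trains of brief action potentials, and contact the soma, proximal dendrites or axon initial segment of pyramidal cells. VIP cells arise in the caudal ganglionic eminence, respond to acetylcholine and serotonin through ionotropic receptors, and mostly inhibit other interneurons, so that their activity releases pyramidal cells from inhibition.

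Total reads per library ran from 1548907 to 4653119 in PV and from 4528457 to 7755954 in VIP, so a level near 0 is known less well in PV. Reads of the mitochondrial genome took 14.4% to 52.9% of a PV library and 1.8% to 16.6% of a VIP library, 35.1% ± 13.3 against 9.65% ± 6.23 (SD, n = 6 each; exact two-sided permutation test p = 0.00649, adjusted p = 0.0104 over 16 such values, where 0.00216 is the smallest p possible). VIP replicates 1 and 3 stood apart from the other 4 by genes of lung epithelium. A list of 10 such genes, written after this was seen, summed to 334 and 395 CPM in those libraries, 118 to 196 CPM in the 5 SST libraries of the same pool, and at most 1.29 CPM in the other VIP libraries and 2.15 CPM in PV. The signal thus followed POOL7098, in VIP and SST alike. Its source was not tested, and calls of named genes that it touches are given below with VIP reduced to POOL7099. POOL7099 is not free of such signals: Ttr, known from choroid plexus and liver, had 7.29 to 10.2 CPM in its 4 VIP libraries and 26 CPM in its EXC library, against 0 CPM in VIP of POOL7098.

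Levels are CPM, counts scaled to a common library size by TMM, as mean ± SD over 6 libraries. They compare libraries for 1 gene and are not corrected for gene length. A fold change is the log2 ratio of PV to VIP from the model with its standard error (SE), so it is positive where PV was higher. Where a group had 3 reads or fewer in all, the ratio of the groups' summed reads after scaling stands with a 95% counting interval, or, at 0 reads, a lower bound from a floor of 3 reads over the group. These cover counting error only. A gene was called at an edgeR adjusted p under 0.05.

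Of 14890 genes tested, 7242 were called, which is 48.6%. PV was higher for 3267 of them (21.9% of those tested) and VIP for 3975 (26.7%). The difference was at least 2-fold for 1847 and 2945 of these. The 6 and 6 libraries did not overlap for 4123 genes (27.7%), 1980 with PV above and 2143 with VIP above. The median log2 fold change over all genes tested was -0.09. Each list below is read against those shares. Of the 7242 genes, 5536 were also called with VIP of POOL7099 alone and 5515 with VIP of POOL7098 alone. Both fits called 4478, and neither called a gene in the opposite direction. No gene passed for the term that asks whether the PV and VIP difference depends on sex (0%; 308 had an unadjusted p under 0.05, and DESeq2 called 0).

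The labels matched the defining genes. Pvalb, the calcium-binding protein that names PV cells, had 178 to 232 CPM, median 201 in PV and 0.12 to 0.92 CPM, median 0.195 in VIP (log2 fold change 9.11 ± 0.45, adjusted p = 1.33e-14). Vip itself had 1634 to 1776 CPM, median 1734 in VIP and 0 to 1.26 CPM, median 1.08 in PV (log2 fold change -11.00 ± 0.64, adjusted p = 2.89e-13). Neither gene overlapped between the groups, and the VIP libraries held Vip within a narrow band. Sst, which marks another interneuron class, had 9.71 to 133 CPM, median 41.1 in PV and 0.12 to 17.7 CPM, median 2.73 in VIP (log2 fold change 3.82 ± 0.72, adjusted p = 0.000114). PV replicates 3 and 4 were highest in Sst and PV replicate 1 was lowest, below VIP replicate 5. The GABA-synthesising enzymes were close in level between the groups. Gad1 averaged 1292 ± 193 CPM in PV and 1239 ± 269 in VIP (log2 fold change 0.04 ± 0.19, adjusted p = 0.881), and Gad2 averaged 2281 ± 221 CPM in PV and 2836 ± 378 in VIP (log2 fold change -0.34 ± 0.21, adjusted p = 0.182). Slc17a7, the glutamate transporter of cortical excitatory cells, was at 19.5 ± 5.83 CPM in PV and 7.43 ± 8.78 in VIP (log2 fold change 1.38 ± 0.53, adjusted p = 0.0322), against 532 CPM in EXC. Its highest VIP value was 24.1 CPM in replicate 5, and its call was lost without PV replicate 3, 4 or 6, without VIP replicate 1, 3 or 6 (log2 fold changes 1.10 to 1.40), with robust estimation of the spread, and with VIP of POOL7099 alone (0.92, adjusted p = 0.164).

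Of 21 PV markers tested, 14 were higher in PV and 1 in VIP, with a median log2 fold change of 2.62. Syt2, a calcium sensor that triggers fast release, averaged 542 ± 168 CPM in PV and 5.26 ± 2.74 in VIP (log2 fold change 6.67 ± 0.41, adjusted p = 9.82e-13). Nefh, the heavy neurofilament, averaged 200 ± 38 CPM in PV and 8.04 ± 1.94 in VIP (log2 fold change 4.66 ± 0.31, adjusted p = 3.69e-12). The exception was Pthlh, a peptide related to parathyroid hormone that stands on both marker lists, with 69.2 ± 10.8 CPM in VIP and 11.9 ± 6.04 in PV (log2 fold change -2.51 ± 0.29, adjusted p = 9.09e-08). Of 20 VIP markers, 18 were higher in VIP and 1 in PV, with a median of -6.65. The marker higher in PV was Nppc, the precursor of C-type natriuretic peptide, at 7.21 ± 2.42 CPM in PV and 0.732 ± 0.376 in VIP (log2 fold change 3.32 ± 0.40, adjusted p = 1.63e-07). Erbb4, the neuregulin receptor of many interneurons, was not called at 2708 ± 410 CPM in PV and 2220 ± 472 in VIP (log2 fold change 0.28 ± 0.23, adjusted p = 0.32).

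The 15 genes with the largest fold in each direction, among called genes of at least 10 CPM with no overlap, were as follows. For VIP they were Tac2, Vip, Adarb2, Chat, Prox1os, Slc18a3, Rag1, Grpr, Crh, Slc5a7, Fxyd6, Htr3a, Plpp4, Calb2 and Stk26. For PV they were Oprd1, Pvalb, Tac1, Lhx6, Musk, Akr1c18, Frmpd2, Moxd1, Ccdc3 and the genes Cfap161, Ccdc153, Stoml3, Ak7, Tmem212 and Rsph1, described with the cilia markers further on. Adarb2, a brain relative of the RNA-editing enzymes, had 687 to 1348 CPM, median 893 in VIP and 0 to 2.99 CPM, median 1.01 in PV (log2 fold change -10.00 ± 0.44, adjusted p = 1.72e-15). Rag1, a recombinase known from lymphocytes, had 7.25 to 16 CPM, median 12.5 in VIP and 0 reads in PV (at least 58.3-fold higher in VIP). Musk, the receptor kinase that organises the neuromuscular junction, had 5.24 to 29 CPM, median 14.3 in PV and 0 reads in VIP (at least 155-fold higher in PV). Akr1c18, a steroid dehydrogenase that inactivates progesterone, had 10.1 to 34.4 CPM, median 22.1 in PV and 0 reads in VIP (at least 273-fold higher in PV). That the groups do not overlap in these genes follows from how they were picked.

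**Figure D1:**
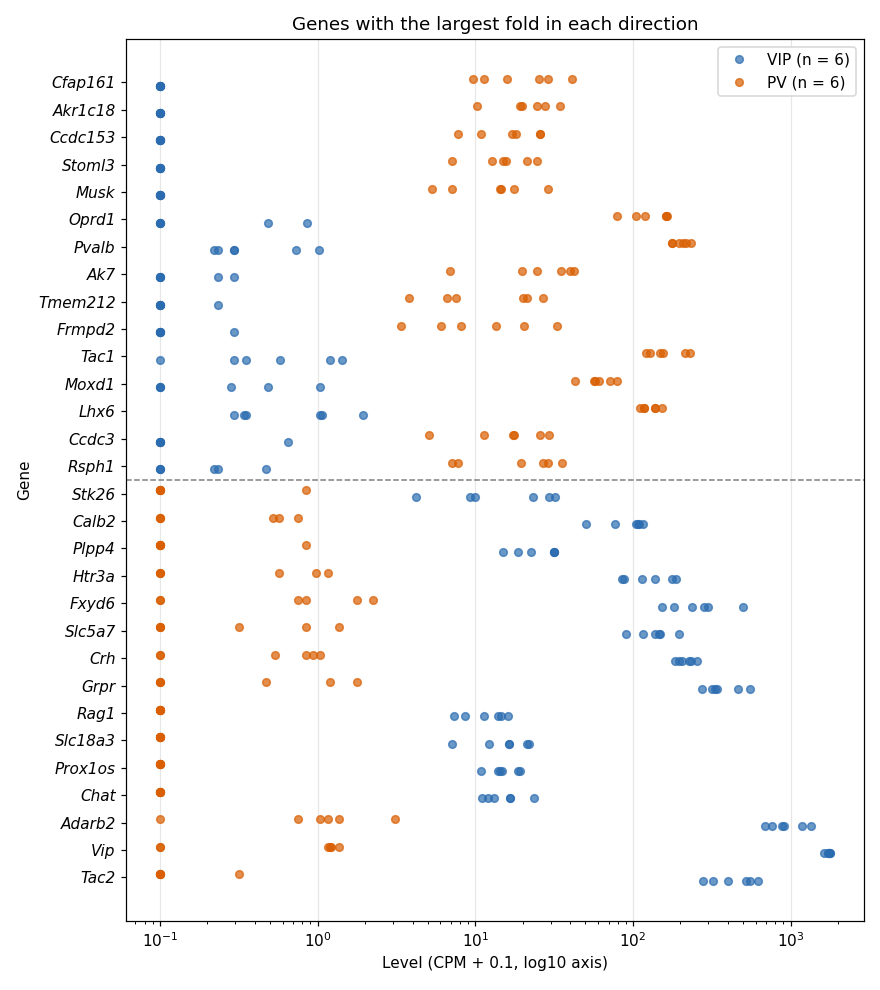
Level of the 15 genes with the largest fold in each direction, in CPM on a log10 axis after adding 0.1, for the 6 PV (orange) and 6 VIP (blue) libraries; 1 point is 1 library. Genes higher in PV stand above the dashed line and genes higher in VIP below it, and the orange and blue points of a gene do not overlap in any row.

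Transcription factors separated the libraries by lineage. Of 12 medial ganglionic eminence factors tested, 8 were higher in PV and 2 in VIP. Lhx6, which is required for the fate of these cells, had 111 to 152 CPM, median 128 in PV and 0.196 to 1.84 CPM, median 0.592 in VIP (log2 fold change 7.52 ± 0.43, adjusted p = 1.91e-13). Sox6, which acts downstream of Lhx6, averaged 228 ± 23 CPM in PV and 1.36 ± 1.3 in VIP (log2 fold change 7.39 ± 0.53, adjusted p = 1.45e-11). Satb1 followed at 2.97 ± 0.15 on the log2 scale. The 2 members higher in VIP were St18 (-2.09 ± 0.44) and Zeb2 (-1.10 ± 0.16), and Zeb2 had 1271 ± 148 CPM in VIP and 584 ± 63.9 in PV. Of 13 caudal ganglionic eminence factors, 9 were higher in VIP and 2 in PV. Prox1, a homeobox gene needed for the migration and maturation of these cells, had 1077 to 1171 CPM, median 1128 in VIP and 4.44 to 13.8 CPM, median 8.13 in PV (log2 fold change -7.11 ± 0.28, adjusted p = 1.9e-16). Sp8 averaged 63.2 ± 18.3 CPM in VIP and 0.48 ± 0.879 in PV (log2 fold change -7.39 ± 0.58, adjusted p = 9.8e-11), and Nr2f2, also called COUP-TFII, 236 ± 52.8 CPM in VIP and 6.56 ± 3.74 in PV (log2 fold change -5.42 ± 0.42, adjusted p = 6.8e-11). Npas1 had 3 reads in PV and 988 in VIP (117-fold, counting interval 40 to 570). Against the list's name, Tox3 (3.84 ± 0.23) and Klf5 (3.51 ± 0.34) were higher in PV. Prox1os, an antisense transcript that overlaps the start of Prox1, had 0 reads in PV. The sources used here do not give the strand setting of the counting, so its reads may include reads of Prox1.

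Genes shared by GABA neurons also differed in part. Of 15 tested, 5 were higher in PV and 6 in VIP. With VIP of POOL7099 alone the PV count fell to 3. With male libraries only, where fewer libraries were fitted, the counts fell to 0 and 2. Slc32a1, Abat and Dlx2 were among the genes that lost the call there. Slc32a1, which loads GABA into vesicles, averaged 359 ± 57.2 CPM in PV and 141 ± 43.1 in VIP (log2 fold change 1.32 ± 0.29, adjusted p = 0.000577). Abat, which degrades GABA, averaged 511 ± 64.5 CPM in PV and 228 ± 60.9 in VIP (log2 fold change 1.18 ± 0.22, adjusted p = 0.00013). The homeobox genes went the other way, with Dlx1 at 352 ± 66.9 CPM in VIP and 101 ± 13.9 in PV (log2 fold change -1.84 ± 0.23, adjusted p = 3.76e-07) and Dlx2 at -1.48 ± 0.30 on the log2 scale. The noncoding Dlx6os1 had 500 ± 166 CPM in VIP and 53.2 ± 13.9 in PV (log2 fold change -3.29 ± 0.28, adjusted p = 3.42e-10), and it overlaps Dlx6, so their reads cannot be told apart without strand.

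Neuropeptides divided evenly: of 24 tested, 10 were higher in PV and 10 in VIP, but the named members were different peptides. The VIP libraries held Tac2, the precursor of neurokinin B, at 279 to 624 CPM, median 459, with 1 read in all of PV (6275-fold, counting interval 1126 to 247865). Crh, the corticotropin-releasing hormone, had 184 to 255 CPM, median 215 in VIP and 0 to 0.937 CPM, median 0.592 in PV (log2 fold change -8.69 ± 0.45, adjusted p = 2.6e-14). Igf1, a secreted growth factor, averaged 1479 ± 315 CPM in VIP and 18.7 ± 9.62 in PV (log2 fold change -6.30 ± 0.31, adjusted p = 1.33e-14), and the chemokine Cxcl14 281 ± 88.6 CPM in VIP and 2.15 ± 0.893 in PV (log2 fold change -7.00 ± 0.45, adjusted p = 2.1e-12). None of these 4 overlapped between the groups, but for Tac2 and Crh this follows from how they were picked. Among all genes tested, 27.7% did not overlap.

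In PV the largest fold among peptides was that of Tac1, the precursor of substance P, with 121 to 229 CPM, median 151 against 0 to 1.33 CPM, median 0.365 in VIP (log2 fold change 8.06 ± 0.43, adjusted p = 5.12e-14). Cartpt averaged 24.4 ± 9.21 CPM in PV and 0.236 ± 0.226 in VIP (log2 fold change 6.76 ± 0.64, adjusted p = 2.75e-09). Nxph1, a secreted ligand of neurexins, averaged 559 ± 71 CPM in PV and 12.9 ± 4 in VIP (log2 fold change 5.44 ± 0.40, adjusted p = 2.35e-11). Npy, common to several interneuron classes, was not called at 42.9 ± 15.7 CPM in PV and 50.5 ± 20.6 in VIP (log2 fold change -0.22 ± 0.31, adjusted p = 0.582), and Scg2 was not called either at 675 ± 56.3 CPM in PV and 571 ± 27.4 in VIP (log2 fold change 0.25 ± 0.12, adjusted p = 0.0898). Tachykinin genes thus lay on both sides, Tac1 in PV and Tac2 in VIP. On the authors' per-length scale (size-factor-adjusted RPKM), which allows genes to be compared, Vip stood at 675 ± 34.7 in VIP libraries, Cxcl14 at 72.2 ± 21.5 and Tac2 at 307 ± 88.1. On that scale Pvalb stood at 102 ± 8.74 in PV libraries and Tac1 at 60.1 ± 16.2.

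The DNA upstream of the defining genes is shown because several peptide genes and immediate early genes are textbook targets of CREB, a factor activated by cyclic AMP and calcium that binds the element TGACGTCA or its half-site TGACG. Each sequence is the 150 bases before an annotated transcript start (RefSeq, GRCm38.p6), 5′ to 3′ on the gene's own strand, with half-sites in capitals (TGACG, or CGTCA where it lies on the opposite strand).
Vip, chr10:5639068-5639217, plus strand: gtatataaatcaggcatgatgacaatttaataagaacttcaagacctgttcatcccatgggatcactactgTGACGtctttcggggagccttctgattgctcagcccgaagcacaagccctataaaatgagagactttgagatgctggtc
Tac1, chr6:7554911-7555060, plus strand: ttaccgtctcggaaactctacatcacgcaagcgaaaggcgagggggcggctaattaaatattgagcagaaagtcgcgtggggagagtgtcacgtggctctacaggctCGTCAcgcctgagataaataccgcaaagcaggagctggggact
Nr4a1, chr15:101266696-101266845, plus strand: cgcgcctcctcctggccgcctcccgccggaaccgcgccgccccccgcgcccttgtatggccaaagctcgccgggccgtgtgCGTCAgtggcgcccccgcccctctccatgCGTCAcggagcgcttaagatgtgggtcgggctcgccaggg
Pvalb, chr15:78206401-78206550, minus strand: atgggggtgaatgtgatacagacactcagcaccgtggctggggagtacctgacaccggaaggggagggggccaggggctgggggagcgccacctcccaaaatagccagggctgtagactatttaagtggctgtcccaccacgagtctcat
The Vip window holds 1 half-site, whose first base lies at -79 from the start, the Tac1 window 1 (-43) and the Nr4a1 window 2 (-69 and -40). The Pvalb window, that of 1 chosen start, holds none. Neither does that of Npas4, an immediate early gene whose window is not shown, although Npas4 has a half-site within 250 bases. The windows of Fos and Sst, also not shown, hold 2 each, and those of Sst (-48 and -45) form 1 full TGACGTCA. Over 250 bases before a start, a half-site on either strand was found in 11 of 22 peptide genes with a promoter entry (50%) and in 14 of 21 immediate early genes (66.7%). The share was 31% among genes called higher in PV, 28.1% among those called higher in VIP and 30.2% among all tested genes with an entry. The half-site includes every full TGACGTCA, which was present in 3.01% of tested genes. Presence of these letters says nothing of binding.

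Immediate early genes, which are switched on within minutes of activity or of tissue dissociation, differed by member. Of 23 tested, 7 were higher in VIP (30.4%, near the 26.7% of all genes), 3 in PV (13%, against 21.9%) and 13 were not called. Npas4, which depends on calcium entry in neurons, averaged 36.7 ± 24.3 CPM in VIP and 2.4 ± 1.26 in PV (log2 fold change -3.94 ± 0.52, adjusted p = 8.54e-07). Nr4a1, a nuclear receptor, had 16.7 to 81.1 CPM, median 21.6 in VIP and 1.41 to 10.7 CPM, median 4.9 in PV (log2 fold change -2.72 ± 0.60, adjusted p = 0.000602). Egr1 averaged 249 ± 103 CPM in VIP and 55.5 ± 17.7 in PV (log2 fold change -2.18 ± 0.36, adjusted p = 1.95e-05). Jun and Dusp1, which respond to stress as well as activity, were higher in PV, Jun at 39.5 ± 9.02 CPM in PV and 8.36 ± 2.76 in VIP (log2 fold change 2.27 ± 0.24, adjusted p = 2.83e-08) and Dusp1 at 65 ± 13.4 CPM in PV and 13.5 ± 6.98 in VIP (log2 fold change 2.18 ± 0.38, adjusted p = 5.29e-05). The labels give no time between dissection and sorting for either group, and its part in these differences was not tested.

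Of 29 receptors for peptides tested, 16 were higher in VIP (against 26.7% of all genes) and 8 in PV. Grpr, the receptor of gastrin-releasing peptide, had 272 to 552 CPM, median 336 in VIP and 0 to 1.68 CPM, median 0.185 in PV (log2 fold change -9.03 ± 0.64, adjusted p = 1.25e-11). Npy1r averaged 245 ± 20.3 CPM in VIP and 1.59 ± 1.77 in PV (log2 fold change -7.30 ± 0.37, adjusted p = 2.09e-14) and Npy2r 278 ± 44.8 CPM in VIP and 6.13 ± 4.15 in PV (log2 fold change -5.58 ± 0.38, adjusted p = 5.4e-12). Rxfp1, the relaxin receptor, averaged 55.5 ± 12 CPM in VIP and 1.01 ± 1.29 in PV (log2 fold change -5.69 ± 0.47, adjusted p = 2.45e-10). Oprd1, the delta opioid receptor, was the largest on the PV side, with 79.1 to 164 CPM, median 140 against 0 to 0.754 CPM, median 0 in VIP (log2 fold change 9.28 ± 0.45, adjusted p = 1.04e-14). Cckbr, the receptor of cholecystokinin, averaged 39.1 ± 4.24 CPM in PV and 0.374 ± 0.629 in VIP (log2 fold change 6.56 ± 0.57, adjusted p = 5.67e-10). Tacr1 and Tacr3, which bind substance P and neurokinin B, were higher in PV at 3.66 ± 0.54 and 4.37 ± 0.51. Adcyap1r1, which binds the peptide PACAP, was not called at 278 ± 31.2 CPM in PV and 325 ± 111 in VIP.

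Of 16 genes of acetylcholine synthesis and reception, 10 were higher in VIP and 3 in PV. Chat, which synthesises acetylcholine, had 11 to 23.5 CPM, median 14.8 in VIP and 0 reads in PV (at least 70.8-fold higher in VIP). The vesicular transporter Slc18a3 had 6.99 to 21.7 CPM, median 16.2 in VIP and also 0 reads in PV (at least 73.1-fold higher). Its gene lies inside the annotated span of Chat, so the 2 values may share reads. The choline transporter Slc5a7 averaged 139 ± 36 CPM in VIP and 0.371 ± 0.523 in PV (log2 fold change -8.53 ± 0.53, adjusted p = 1.04e-12). Among receptors, the nicotinic subunits Chrna5 (34.2 ± 3.47 CPM in VIP and 0.498 ± 0.613 in PV, log2 fold change -6.05 ± 0.60, adjusted p = 6.74e-09) and Chrna3 (-4.34 ± 0.81) were higher in VIP. The muscarinic receptors that couple to inhibitory G proteins were higher in PV: Chrm2 averaged 59.6 ± 14.5 CPM in PV and 2.13 ± 1.42 in VIP (log2 fold change 4.86 ± 0.45, adjusted p = 1.99e-09) and Chrm4 14.6 ± 1.93 CPM in PV and 0.877 ± 0.777 in VIP (log2 fold change 4.03 ± 0.44, adjusted p = 4.09e-08). Chrm1 was not called at 41.6 ± 9.08 CPM in PV and 48.1 ± 17.1 in VIP. The third member higher in PV was the nicotinic subunit Chrnb2, which was not called with VIP of POOL7099 alone.

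Of 12 serotonin receptors tested, 6 were higher in VIP and 3 in PV. Htr3a, the subunit of the ionotropic receptor, had 85.5 to 188 CPM, median 126 in VIP and 0 to 1.07 CPM, median 0.234 in PV (log2 fold change -8.35 ± 0.53, adjusted p = 1.67e-12). Htr2c averaged 223 ± 23.8 CPM in VIP and 39.1 ± 14.3 in PV (log2 fold change -2.50 ± 0.27, adjusted p = 3.96e-08). Htr2a, which couples to Gq proteins, went the other way at 60.7 ± 11.5 CPM in PV and 5.12 ± 2.08 in VIP (log2 fold change 3.58 ± 0.34, adjusted p = 2.86e-09). Htr1d had 55 reads in PV and 0 in VIP (at least 51.5-fold higher in PV). Among adrenergic and dopamine receptors, 2 of 10 were higher in each group (20% each, near the 21.9% and 26.7% of all genes). Adra1b had 158 ± 58.8 CPM in VIP and 5.87 ± 3.19 in PV (log2 fold change -4.68 ± 0.36, adjusted p = 6.36e-11), and Adra1a was not called at 65.3 ± 13.2 CPM in PV and 69.6 ± 14.5 in VIP. Drd1 averaged 46.6 ± 12.6 CPM in PV and 18.9 ± 4.01 in VIP (log2 fold change 1.25 ± 0.32, adjusted p = 0.00203). Of the endocannabinoid genes, Cnr1, the CB1 receptor that lowers transmitter release, had 2075 to 3603 CPM, median 3030 in VIP and 77.7 to 144 CPM, median 130 in PV (log2 fold change -4.58 ± 0.21, adjusted p = 4.48e-15). Dagla, which makes the lipid 2-AG, was higher in PV at 87.7 ± 16.7 CPM in PV and 39.3 ± 19.1 in VIP (log2 fold change 1.16 ± 0.26, adjusted p = 0.000722).

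The GABA and glycine receptor genes tested (19) were divided 6 to 6 (31.6% each, against 21.9% of all genes higher in PV and 26.7% in VIP). Gabrd, the delta subunit of extrasynaptic receptors, had 129 to 198 CPM, median 163 in PV and 0.196 to 3.59 CPM, median 2.42 in VIP (log2 fold change 6.27 ± 0.45, adjusted p = 2.03e-11). Gabrb2, an abundant synaptic subunit, was not called at 1233 ± 241 CPM in PV and 1216 ± 365 in VIP. Gabra2 was higher in VIP at 43.2 ± 18.2 CPM in VIP and 4.14 ± 2.55 in PV (log2 fold change -3.46 ± 0.35, adjusted p = 1.05e-08), as was Glra2, a glycine receptor subunit, at 289 ± 54.7 CPM in VIP and 12.4 ± 3.04 in PV (log2 fold change -4.59 ± 0.26, adjusted p = 1.31e-13). Gabbr2, a subunit of the metabotropic receptor, was higher in PV at 326 ± 42.5 CPM in PV and 118 ± 24.7 in VIP (log2 fold change 1.48 ± 0.16, adjusted p = 2.14e-08).

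Of 16 ionotropic glutamate receptor subunits, 6 were higher in PV, 9 in VIP and 1 was not called. The AMPA receptor subunits diverged. Gria2, which makes these receptors impermeable to calcium, had 908 to 2603 CPM, median 1580 in VIP and 405 to 617 CPM, median 491 in PV (log2 fold change -1.78 ± 0.21, adjusted p = 1.45e-07). Gria1, Gria3 and Gria4 were higher in PV, Gria3 at 414 ± 68.3 CPM in PV and 63.3 ± 22.8 in VIP (log2 fold change 2.72 ± 0.23, adjusted p = 4.48e-10), Gria1 at 1.21 ± 0.12 and Gria4 at 0.93 ± 0.22 on the log2 scale, although Gria4 was not called with VIP of POOL7098 alone. Grin2a averaged 276 ± 46.7 CPM in PV and 100 ± 6.74 in VIP (log2 fold change 1.46 ± 0.14, adjusted p = 3.51e-09). The delta subunit Grid1 averaged 127 ± 27.4 CPM in VIP and 31.1 ± 5.36 in PV (log2 fold change -2.05 ± 0.18, adjusted p = 4.99e-10). Auxiliary subunits were also divided, 6 to 7 of 17. Neto2, which slows kainate receptors, averaged 430 ± 74.4 CPM in PV and 54.9 ± 16 in VIP (log2 fold change 2.94 ± 0.22, adjusted p = 3.27e-11). Shisa6 averaged 419 ± 37.7 CPM in VIP and 9.68 ± 5.57 in PV (log2 fold change -5.54 ± 0.21, adjusted p = 1.19e-16), and Cacng5 113 ± 33.3 CPM in VIP and 0.992 ± 0.791 in PV (log2 fold change -6.81 ± 0.42, adjusted p = 9.62e-13). Of 7 metabotropic receptors, 5 were higher in VIP. Grm7 averaged 164 ± 56.5 CPM in VIP and 12.5 ± 5.32 in PV (log2 fold change -3.75 ± 0.30, adjusted p = 1.03e-10) and Grm8 56.3 ± 12 CPM in VIP and 1.82 ± 1.7 in PV (log2 fold change -4.96 ± 0.37, adjusted p = 3.16e-11). Grm3 alone of the 7 was called higher in PV, at 26.3 ± 6.36 CPM in PV and 5.59 ± 3.22 in VIP (log2 fold change 2.20 ± 0.34, adjusted p = 9e-06), and Grm5 was not called at 337 ± 32.3 CPM in PV and 410 ± 110 in VIP.

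**Figure D2:**
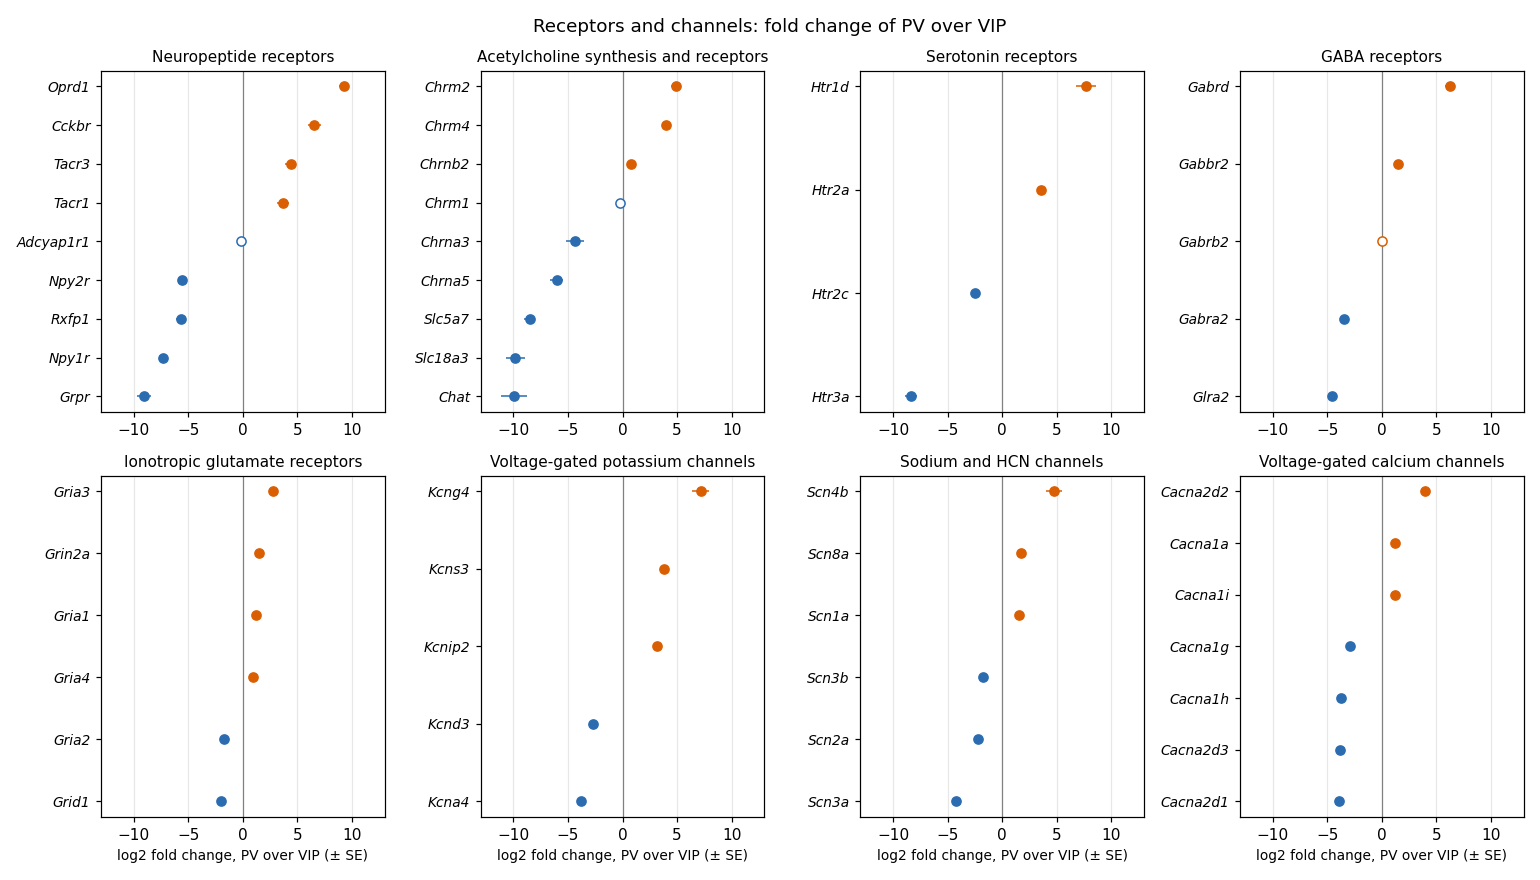
Log2 fold change of PV over VIP with its SE for the members of 8 lists of receptors and channels that the naming rule picked and the text describes; bars are 1 SE, and the fitted fold of a gene with 3 reads or fewer in a group depends on the prior count. Filled points were called at an adjusted p under 0.05, open points were not, and points right of 0 were higher in PV.

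Voltage-gated potassium channels were called higher in PV for 22 of 43 members and higher in VIP for 13, 51.2% and 30.2%. Kcnc1 and Kcnc2, the Kv3 subunits known for the brief spikes of PV cells, are given for that role after their values were seen. Kcnc1 had 656 to 943 CPM, median 831 in PV and 262 to 431 CPM, median 301 in VIP (log2 fold change 1.40 ± 0.16, adjusted p = 8.13e-08). Kcnc2 had 902 to 1217 CPM, median 1016 in PV and 164 to 289 CPM, median 225 in VIP (log2 fold change 2.19 ± 0.18, adjusted p = 1.31e-10). The groups did not overlap in either, as for 27.7% of all genes tested. Kcng4 and Kcns3, silent subunits that alter Kv2 channels, had larger folds: Kcng4 averaged 29.1 ± 9.51 CPM in PV and 0.187 ± 0.289 in VIP (log2 fold change 7.17 ± 0.79, adjusted p = 4.34e-08) and Kcns3 54.5 ± 7.93 CPM in PV and 3.82 ± 0.928 in VIP (log2 fold change 3.84 ± 0.40, adjusted p = 1.53e-08). Other silent subunits of the list were called in both directions. Kcnip2, a partner of Kv4 channels, averaged 134 ± 22.4 CPM in PV and 14.8 ± 6.31 in VIP (log2 fold change 3.14 ± 0.27, adjusted p = 5.07e-10). In VIP, Kcna4 averaged 156 ± 91 CPM in VIP and 11 ± 1.39 in PV (log2 fold change -3.84 ± 0.33, adjusted p = 4.16e-10), and Kcnd3, a Kv4 subunit of A-type current, 238 ± 21.4 CPM in VIP and 36.1 ± 13.1 in PV (log2 fold change -2.70 ± 0.18, adjusted p = 5.57e-12).

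Other potassium channels were higher in PV for 14 of 26 members and in VIP for 4. The PV side included leak channels, with Kcnk3 at 60.3 ± 11.3 CPM in PV and 9.69 ± 4.11 in VIP (log2 fold change 2.64 ± 0.30, adjusted p = 6.38e-08) and Kcnk12 at 31.5 ± 6.09 CPM in PV and 1.49 ± 1.2 in VIP (log2 fold change 4.43 ± 0.40, adjusted p = 1.44e-09). Not every leak channel went this way, since another of the list was called higher in VIP. Kcnt2, a sodium-activated channel, had 337 to 1037 CPM, median 640 in VIP and 2.1 to 10.5 CPM, median 7.57 in PV (log2 fold change -6.74 ± 0.40, adjusted p = 4.21e-13). The inward rectifier Kcnj2 averaged 133 ± 38.8 CPM in VIP and 2.85 ± 2.2 in PV (log2 fold change -5.70 ± 0.40, adjusted p = 1.02e-11). Kcnj10, a channel known from astrocytes, was higher in PV at 41 ± 24.6 CPM in PV and 6.48 ± 5.36 in VIP (log2 fold change 2.61 ± 0.75, adjusted p = 0.00563), beside the astrocyte markers given further on.

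Sodium channels differed by subunit. Scn1a and Scn8a, the main pore subunits of adult interneuron axons, were higher in PV, Scn1a at 1124 ± 158 CPM in PV and 396 ± 85.1 in VIP (log2 fold change 1.51 ± 0.20, adjusted p = 1.24e-06) and Scn8a at 809 ± 117 CPM in PV and 249 ± 8.92 in VIP (log2 fold change 1.70 ± 0.15, adjusted p = 4.36e-10). Scn2a and Scn3a were higher in VIP, Scn2a at 862 ± 167 CPM in VIP and 191 ± 76.3 in PV (log2 fold change -2.18 ± 0.20, adjusted p = 2.12e-09) and Scn3a at 132 ± 37.3 CPM in VIP and 7.22 ± 3.49 in PV (log2 fold change -4.20 ± 0.25, adjusted p = 6.55e-13). The beta subunits split likewise: Scn4b (22.7 ± 5.69 CPM in PV and 0.749 ± 1.02 in VIP, log2 fold change 4.77 ± 0.71, adjusted p = 5.71e-06) was higher in PV, and Scn3b (-1.72 ± 0.19) in VIP.

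Of 16 voltage-gated calcium channel genes, 9 were higher in VIP and 4 in PV. Cacna1a, the P/Q-type pore subunit that drives release at PV terminals, averaged 190 ± 33.8 CPM in PV and 78.9 ± 22.7 in VIP (log2 fold change 1.25 ± 0.18, adjusted p = 2.56e-06). Its partner Cacna2d2 averaged 247 ± 26.8 CPM in PV and 15.5 ± 5.72 in VIP (log2 fold change 3.98 ± 0.24, adjusted p = 4.38e-13), while Cacna2d1 averaged 164 ± 28.1 CPM in VIP and 11.9 ± 6.3 in PV (log2 fold change -3.93 ± 0.26, adjusted p = 5.23e-12) and Cacna2d3 102 ± 5.66 CPM in VIP and 7.09 ± 2.73 in PV (log2 fold change -3.81 ± 0.21, adjusted p = 8.42e-14). The T-type pore subunits were on both sides, with Cacna1g (-2.90 ± 0.28) and Cacna1h (-3.77 ± 0.31) higher in VIP and Cacna1i (1.22 ± 0.23) in PV. Among 25 calcium-binding genes, 12 were higher in PV and 9 in VIP. With VIP of POOL7099 alone, the PV count fell to 7. Calb1 averaged 113 ± 37.4 CPM in PV and 3.73 ± 2.3 in VIP (log2 fold change 4.94 ± 0.30, adjusted p = 6.55e-13), and Calb2, or calretinin, 93.7 ± 25.2 CPM in VIP and 0.257 ± 0.293 in PV (log2 fold change -8.06 ± 0.57, adjusted p = 1.18e-11). Necab1 was higher in VIP at 468 ± 61.7 CPM in VIP and 85.1 ± 37.2 in PV (log2 fold change -2.45 ± 0.21, adjusted p = 4.91e-10), and Calm2 was not called at 741 ± 74.9 CPM in PV and 777 ± 176 in VIP.

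Genes of vesicle release were higher in PV for 21 of 44 members (47.7%) and in VIP for 13. Paralogs exchanged places. Cplx1, a complexin that clamps and promotes fusion, had 1047 to 1587 CPM, median 1302 in PV and 63.5 to 204 CPM, median 155 in VIP (log2 fold change 3.18 ± 0.25, adjusted p = 1.21e-10), and its relative Cplx2 had 517 to 688 CPM, median 606 in VIP and 52.2 to 152 CPM, median 93.1 in PV (log2 fold change -2.68 ± 0.19, adjusted p = 8.25e-12). Vamp1 averaged 219 ± 44.5 CPM in PV and 35.1 ± 6.06 in VIP (log2 fold change 2.68 ± 0.29, adjusted p = 2.57e-08), and Syt7, a slower calcium sensor, 289 ± 32.4 CPM in PV and 60.6 ± 11.2 in VIP (log2 fold change 2.25 ± 0.15, adjusted p = 2.86e-12). Syt6 was higher in VIP at 68.2 ± 9.68 CPM in VIP and 1.63 ± 2.19 in PV (log2 fold change -5.22 ± 0.49, adjusted p = 2.75e-09). Syt1, the general sensor of fast release, was not called at 2173 ± 187 CPM in PV and 2320 ± 165 in VIP (log2 fold change -0.08 ± 0.14, adjusted p = 0.652).

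Synaptic adhesion genes were higher in VIP for 20 of 44 members and in PV for 11. Among cerebellins, secreted partners of neurexins, 2 were higher in VIP, with Cbln2 at 256 ± 25.2 CPM in VIP and 5.79 ± 2.5 in PV (log2 fold change -5.40 ± 0.27, adjusted p = 1.33e-14) and Cbln4 at 170 ± 48.5 CPM in VIP and 4.86 ± 1.31 in PV (log2 fold change -5.18 ± 0.52, adjusted p = 9.06e-09). Elfn1, which recruits presynaptic metabotropic receptors, averaged 222 ± 64.9 CPM in VIP and 9.47 ± 6.17 in PV (log2 fold change -4.54 ± 0.37, adjusted p = 1.93e-10). Among neurexophilins 2 were higher in PV: beside Nxph1, Nxph2 averaged 32.2 ± 6.21 CPM in PV and 0.35 ± 0.447 in VIP (log2 fold change 6.42 ± 0.64, adjusted p = 7.83e-09). Cntnap4 averaged 161 ± 21.6 CPM in PV and 21.2 ± 3.27 in VIP (log2 fold change 2.91 ± 0.23, adjusted p = 1.24e-10). Cadherins were higher in VIP for 17 of 25 members, 68%, and in PV for 6. Pcdh8 had 144 to 196 CPM, median 182 in VIP and 8.44 to 23.9 CPM, median 18.8 in PV (log2 fold change -3.31 ± 0.27, adjusted p = 2.54e-10). Pcdh20 averaged 99.4 ± 30.2 CPM in VIP and 5.63 ± 2.12 in PV (log2 fold change -4.19 ± 0.28, adjusted p = 5.26e-12). Cdh18 was higher in PV at 65.8 ± 13.1 CPM in PV and 7.78 ± 1.21 in VIP (log2 fold change 3.08 ± 0.20, adjusted p = 3.94e-12).

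Guidance genes divided 12 to 15 of 43. That is 27.9% higher in PV and 34.9% in VIP, near the 21.9% and 26.7% of all genes. Slit2, a secreted repellent, had 159 to 251 CPM, median 190 in PV and 1.26 to 4.27 CPM, median 2.27 in VIP (log2 fold change 6.36 ± 0.40, adjusted p = 1.19e-12). Sema3c had 135 to 350 CPM, median 308 in VIP and 1.07 to 4.48 CPM, median 1.78 in PV (log2 fold change -6.97 ± 0.35, adjusted p = 2.09e-14), and the semaphorin receptors Nrp1 (-2.92 ± 0.33) and Nrp2 (-2.77 ± 0.23) were also higher in VIP. Other semaphorins were called on both sides, and the plexins called, which are also semaphorin receptors, were higher in PV. Unc5d, a netrin receptor, averaged 103 ± 18.9 CPM in PV and 10 ± 0.93 in VIP (log2 fold change 3.38 ± 0.19, adjusted p = 1.01e-13), and Dcc, also a netrin receptor, 111 ± 16.1 CPM in VIP and 19.8 ± 8.2 in PV (log2 fold change -2.50 ± 0.23, adjusted p = 1.28e-09).

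Perineuronal nets are the proteoglycan coats that surround many PV cells. Of 20 net and protease genes, 10 were higher in PV and 4 in VIP. Acan, the aggrecan core of the net, had 9.65 to 20.1 CPM, median 13 in PV and 0 to 0.552 CPM, median 0.123 in VIP (log2 fold change 6.27 ± 0.78, adjusted p = 3.37e-07). Mme, a membrane peptidase, averaged 257 ± 47.2 CPM in PV and 5.68 ± 2.42 in VIP (log2 fold change 5.47 ± 0.27, adjusted p = 1.14e-14), and the proteases Adamts8 and Adamts15 followed at 4.75 ± 0.50 and 4.61 ± 0.31. Ncan was not called at 146 ± 17.7 CPM in PV and 149 ± 35.2 in VIP. Ptprz1, a receptor phosphatase that binds nets, was higher in VIP at 458 ± 56.6 CPM in VIP and 50.4 ± 18.2 in PV (log2 fold change -3.19 ± 0.23, adjusted p = 2.38e-11). Other matrix genes were mostly on the VIP side, 11 of 21 against 4. Col15a1 had 2 reads in PV and 745 in VIP (133-fold, counting interval 36.6 to 1098), and Fbln2 averaged 45.7 ± 10.9 CPM in VIP and 1.09 ± 1.32 in PV (log2 fold change -5.55 ± 0.53, adjusted p = 3.81e-09). Col3a1, which also followed the lung genes, had 23.7 CPM in VIP of POOL7098 and 0.423 in VIP of POOL7099.

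Growth factor genes held single large differences. Kit, a receptor tyrosine kinase, had 552 to 695 CPM, median 680 in VIP and 14.1 to 48.7 CPM, median 19.1 in PV (log2 fold change -4.65 ± 0.32, adjusted p = 5.74e-12), and its ligand Kitl was higher in PV at 13.3 ± 4 CPM in PV and 3.09 ± 1.08 in VIP (log2 fold change 2.06 ± 0.32, adjusted p = 8.08e-06). Igfbp5, which binds the Igf1 protein, averaged 336 ± 48.8 CPM in VIP and 17.6 ± 6.11 in PV (log2 fold change -4.34 ± 0.26, adjusted p = 4.97e-13). Fgf18 averaged 18.9 ± 4.76 CPM in PV and 1.31 ± 0.816 in VIP (log2 fold change 4.02 ± 0.50, adjusted p = 2.98e-07), Gfra2 63.8 ± 16.9 CPM in PV and 4.35 ± 1.23 in VIP (log2 fold change 3.89 ± 0.29, adjusted p = 3.16e-11), and Fgf1 109 ± 23.4 CPM in VIP and 15.6 ± 6.02 in PV (log2 fold change -2.86 ± 0.54, adjusted p = 0.000116). Of 34 members in all, 12 were higher in PV and 8 in VIP (35.3% and 23.5%, against 21.9% and 26.7% of all genes).

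Of 36 nuclear genes of oxidative phosphorylation, the respiratory chain and ATP synthase, 35 were higher in PV (97.2%, against 21.9% of all genes) and none in VIP, with a median log2 fold change of 1.53. Cox6a2, a cytochrome oxidase subunit of heart and muscle, averaged 30.9 ± 8.76 CPM in PV and 3.15 ± 1.27 in VIP (log2 fold change 3.29 ± 0.47, adjusted p = 2.61e-06). Ndufb5, of complex I, had 143 to 199 CPM, median 163 in PV and 21.6 to 54.3 CPM, median 40.4 in VIP (log2 fold change 2.16 ± 0.24, adjusted p = 5.87e-08). Atp5g3, of the ATP synthase, averaged 355 ± 42.7 CPM in PV and 93.1 ± 18.9 in VIP (log2 fold change 1.97 ± 0.20, adjusted p = 1.12e-08), and Cox5a 158 ± 23.5 CPM in PV and 42.2 ± 16 in VIP (log2 fold change 1.94 ± 0.28, adjusted p = 4.06e-06). Uqcrb was not called at 6.98 ± 1.69 CPM in PV and 6.43 ± 1.37 in VIP. Glycolysis and TCA cycle genes were higher in PV for 26 of 36, with Mdh1 at 1244 ± 130 CPM in PV and 274 ± 52 in VIP (log2 fold change 2.22 ± 0.19, adjusted p = 5.5e-10) and Ldhb at 276 ± 37.4 CPM in PV and 33.3 ± 11.2 in VIP (log2 fold change 3.07 ± 0.26, adjusted p = 2.7e-10). Esrrg, a nuclear receptor that drives such genes, averaged 327 ± 35.1 CPM in PV and 41.3 ± 6.48 in VIP (log2 fold change 3.02 ± 0.23, adjusted p = 6.11e-11). Of 31 cytosolic ribosomal genes 2 were higher in PV and 4 in VIP, with a median of -0.05. The count of 2 fell to 0 without PV replicate 4 or VIP replicate 6. Rpl5 averaged 63 ± 31.1 CPM in PV and 43.2 ± 7.61 in VIP and was not called.

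The mitochondrial genome differed between the groups in the same direction as these lists, since 9 of its 10 genes tested were higher in PV. mt-Cytb averaged 94511 ± 46301 CPM in PV and 16404 ± 11725 in VIP (log2 fold change 2.55 ± 0.44, adjusted p = 4.3e-05). Near-identical nuclear copies and counting of unique alignments make such counts uncertain, and some of these genes had few reads. With the pool as a covariate, 1 of the 36 nuclear genes was called higher in PV and 1 higher in VIP. That fit is linked through the EXC libraries, in which the 36 genes summed to 2855 to 4495 CPM in the 5 of the PV pool and 1352 CPM in the 1 of POOL7099, against 7754 to 9541 CPM in PV and 1901 to 3902 CPM in VIP. Without PV replicates 1 and 6, which have the largest mitochondrial shares, 35 of the 36 were again called higher in PV, as were 35 with mitochondrial genes left out before scaling. Of 21 sodium pump and chloride transporter genes, 6 were higher in PV and 7 in VIP (28.6% and 33.3%, near the 21.9% and 26.7% of all genes). Atp1b1, a beta subunit of the sodium pump, averaged 6523 ± 848 CPM in PV and 2183 ± 267 in VIP (log2 fold change 1.60 ± 0.21, adjusted p = 7.88e-07). Fxyd6, a small regulator of the pump, had 153 to 497 CPM, median 260 in VIP and 0 to 2.15 CPM, median 0.698 in PV (log2 fold change -8.41 ± 0.47, adjusted p = 1.53e-13). Neurofilaments were higher in PV, with Nefm at 109 ± 11.6 CPM in PV and 6.46 ± 2.4 in VIP (log2 fold change 4.15 ± 0.29, adjusted p = 1.06e-11) and Nefl at 221 ± 23.5 CPM in PV and 30.1 ± 4.57 in VIP (log2 fold change 2.87 ± 0.22, adjusted p = 6.25e-11). Map2, the dendritic microtubule protein, was higher in VIP at 1058 ± 142 CPM in VIP and 599 ± 85.1 in PV (log2 fold change -0.82 ± 0.14, adjusted p = 3.56e-05).

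**Figure D3:**
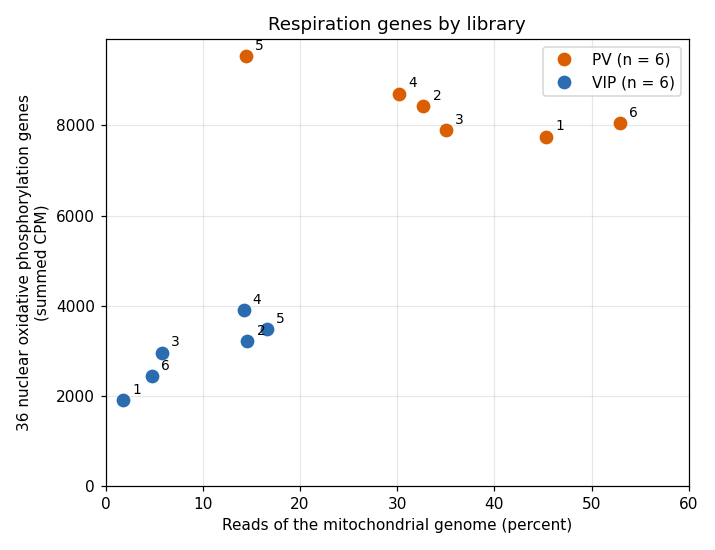
Share of mitochondrial reads in percent (x) against the summed CPM of 36 nuclear oxidative phosphorylation genes (y) in the 6 PV (orange) and 6 VIP (blue) libraries; numbers are replicates. PV libraries lie above all VIP libraries on the y axis, also PV replicate 5, whose mitochondrial share of 14.4% lies within the VIP range.

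**Figure D4:**
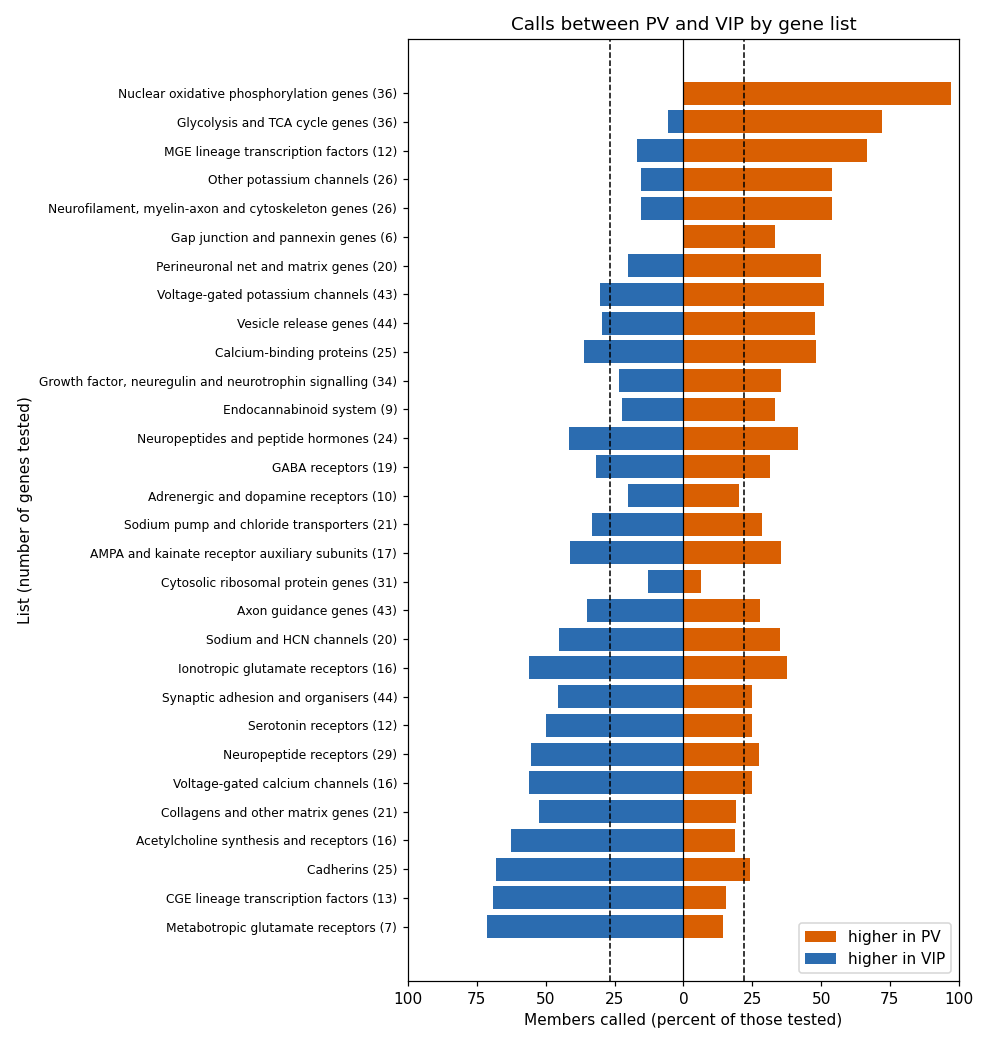
Share of tested members called higher in PV (right) and higher in VIP (left), in percent, for 30 lists of neuronal and metabolic genes, with the number tested in brackets; dashed lines are the shares over all 14890 genes, 21.9% and 26.7%. Nuclear oxidative phosphorylation lies farthest right, and the cadherins lie left.

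Markers of other cells moved with the groups and are given as levels, since fewer cells of a type and less RNA per cell cannot be told apart in bulk RNA. Of 19 motile cilia and ependymal genes tested, 18 were higher in PV and 1, Ccdc39, in VIP. The list summed to 167 to 582 CPM in PV and 49.9 to 202 in VIP, where most was Ccdc39, with 105 ± 68.1 CPM in VIP and 42.3 ± 10.7 in PV (log2 fold change -1.35 ± 0.38, adjusted p = 0.00497). Ccdc39 was not called with VIP of POOL7099 alone. In VIP the list summed to 168, 156 and 202 CPM in replicates 1, 3 and 6. It summed to 49.9, 52.4 and 55 CPM in replicates 2, 4 and 5. The sum thus did not follow the pool, since replicate 6 lies in POOL7099. Foxj1, the master regulator of motile cilia, falls outside the naming rule and was chosen for that role after its values were seen. It had 8.08 to 22.2 CPM, median 14.9 in PV and 0 to 0.92 CPM, median 0.0629 in VIP (log2 fold change 6.22 ± 0.87, adjusted p = 2.05e-06). Foxj1 averaged 0.759 CPM in the 5 EXC libraries of the PV pool. Cfap161 had 9.61 to 40.8 CPM, median 20.7 in PV, 0 reads in VIP and 0.0593 CPM in those EXC libraries. Ccdc153 had 7.65 to 25.8 CPM, median 17.5 in PV and 0 reads in VIP, and Ak7 had 334 reads in PV and 2 in VIP (469-fold, counting interval 129 to 3887). Without Ccdc39 the list summed to 138 to 532 CPM in PV, 7.29 to 10.3 CPM in VIP and 11.1 to 32 CPM in the EXC libraries of the PV pool. All 6 PV libraries thus held these genes, and the EXC libraries of their pool held little of them. With at least 5 CPM required in 6 libraries, and after thinning all libraries to the same total of reads, mitochondrial reads included, fewer of the list were tested, and 10 and 7 were called higher in PV.

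Of 12 astrocyte markers, 6 were higher in PV and 1 in VIP. Aqp4, the water channel of astrocytes, averaged 41.6 ± 22.9 CPM in PV and 3.33 ± 3.32 in VIP (log2 fold change 3.63 ± 0.72, adjusted p = 0.000183), and Sox9 26 ± 10.6 CPM in PV and 2.65 ± 1.42 in VIP (log2 fold change 3.24 ± 0.58, adjusted p = 5.61e-05). Slc1a2, the glutamate transporter of astrocytes, averaged 1212 ± 169 CPM in VIP and 360 ± 153 in PV (log2 fold change -1.76 ± 0.33, adjusted p = 0.000111), so the summed list was higher in VIP, at 1129 to 1658 CPM against 261 to 837. The counts and the sum thus point to opposite groups. Excitatory markers were higher in PV for 12 of 19, with sums of 1975 to 2450 CPM in PV and 1261 to 1675 in VIP. On CPM from raw library totals the excitatory sums did not differ by the exact permutation test (adjusted p = 0.482). For reference, the scaled sums were 1479 to 2079 CPM in SST, a range that overlaps that of PV, and 3701 to 9482 CPM in EXC. Which cells the PV sum comes from was not tested. Bcl11b averaged 85.9 ± 15.8 CPM in PV and 13.8 ± 4.65 in VIP (log2 fold change 2.60 ± 0.19, adjusted p = 3.27e-11), and Slc17a6, a glutamate transporter, 5.4 ± 0.597 CPM in PV and 0.364 ± 0.458 in VIP (log2 fold change 3.85 ± 0.59, adjusted p = 7.98e-06). None of 8 oligodendrocyte genes was called (edgeR), and Mbp averaged 165 ± 69.6 CPM in PV and 127 ± 136 in VIP. With the pool as a covariate 6 of the 8 were called higher in VIP, and with VIP of POOL7098 alone Mbp was called higher in PV (log2 fold change 2.93, adjusted p = 0.0151). Of 11 microglial genes 1 was, C1qa, higher in VIP at 14.3 CPM in POOL7098 and 1.36 in POOL7099, against 1.28 in PV. Its call was lost without PV replicate 2, 4 or 5, without VIP replicate 1 or 3, and with VIP of POOL7099 alone (log2 fold change -0.10). Pdgfra, known from oligodendrocyte precursors, averaged 16.2 ± 2.69 CPM in VIP and 0.677 ± 0.766 in PV (log2 fold change -4.43 ± 0.74, adjusted p = 2.34e-05), while the other 5 markers of that type were too low to test. What these levels add to the other differences was not tested.

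**Figure D5:**
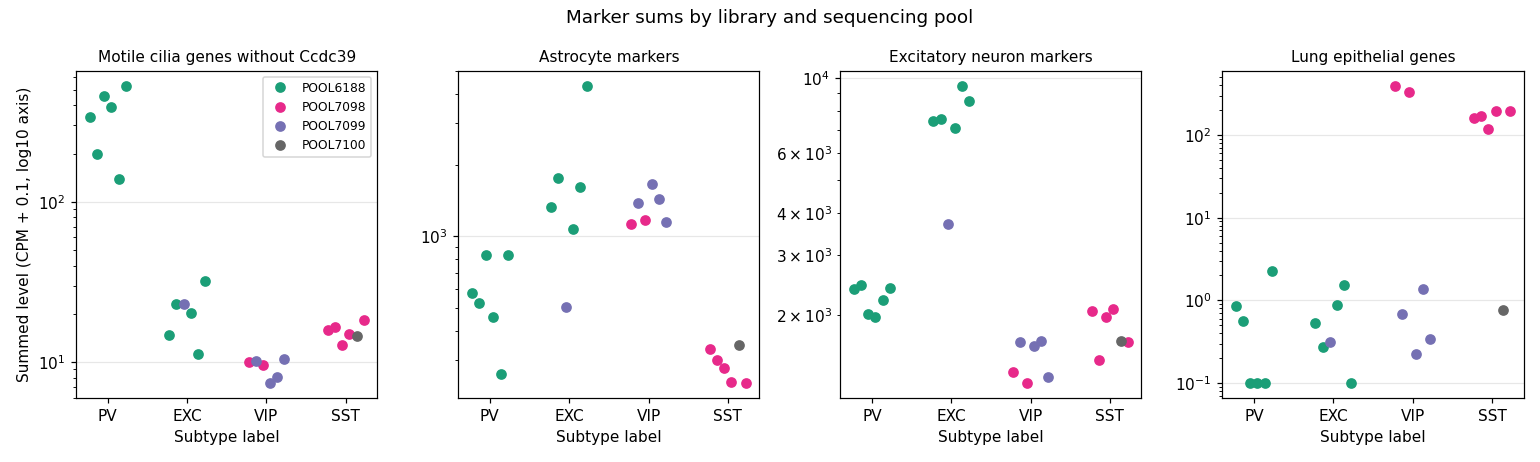
Summed CPM of 4 marker lists on a log10 axis after adding 0.1, 1 point a library, for PV and VIP and for the EXC and SST libraries, coloured by sequencing pool. Motile cilia genes without Ccdc39 are high in the PV libraries and not in the EXC libraries of the same pool, and lung genes are high in every library of POOL7098, VIP or SST.

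Within VIP, 68 genes were called between POOL7099 and POOL7098, 0.457% of 14890, and 790 had an unadjusted p under 0.05. Of the 68, 67 were higher in POOL7098 and 1, Ttr, was higher in POOL7099. Also called between PV and VIP were 36 of the 68, against 48.6% of all genes tested. Sftpc, the surfactant protein of lung alveoli, had 107 and 87.7 CPM in VIP replicates 1 and 3, at most 0.184 CPM in the other VIP libraries and 0 reads in PV. It was nevertheless called higher in VIP than in PV (adjusted p = 0.00675), as were 9 of the 10 lung genes. With VIP of POOL7099 alone neither Sftpc nor Sftpb was called. Sftpb averaged 84.6 CPM in VIP of POOL7098 and 0.0979 in VIP of POOL7099. Lgals1 averaged 54.5 and 0.682 CPM, against 6.22 in PV (log2 fold change -1.62 ± 0.92, adjusted p = 0.147). Another split within VIP crossed the pools. By the chi-square of counts per degree of freedom, pairs among replicates 1, 3 and 6 differed by 9.7 to 25. Pairs among replicates 2, 4 and 5 differed by 12 to 19.7, and pairs across these sets by 36.9 to 84. Mitochondrial reads enter this measure, so their shares are not a separate sign of the split. The shares were 1.8%, 5.83% and 4.81% against 14.6%, 14.2% and 16.6%. Replicate 6 lies in POOL7099, so this split widens the spread within that pool. Its effect on the count of 68 was not tested.

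With the pool as a covariate, PV and VIP are linked only through the EXC libraries, 5 in the PV pool and 1 in a VIP pool. That 1 library stood apart from the others of its label, with Slc17a7 at 162 CPM against a mean of 606 CPM, so its own deviation enters every PV and VIP difference of this fit. It called 762 genes higher in PV and 1579 higher in VIP, so 32.6% of calls lay on the PV side against 45.1%. Of 196 genes named here by the rule or for their role, 178 were called. In that fit 51 of these lost the call with the same sign, and 13 changed sign, whether called there or not. Pvalb, Vip, Tac1, Tac2, Crh, Calb2, Htr3a, Grpr, Oprd1, Prox1, Sp8, Sox6, Adarb2, Cnr1, Gabrd and Cplx1 kept the call. The genes that lost it or changed sign were not alike in size. Scn4b, Slc32a1, Atp1b1, Cox6a2 and Sox9 were among those that changed sign. Smaller folds of the same sign were fitted for Gria2 (-1.11), Kcnc1 (0.86), Cacna1a (0.96), Atp5g3 (1.13), Mdh1 (0.81), Ldhb (1.04), Ndufb5 (0.53), Cox5a (0.83) and Aqp4 (1.02). Large log2 folds that did not pass were fitted for Lhx6 (5.96, adjusted p = 0.0799), Slc5a7 (-5.74), Syt2 (3.73) and Acan (2.97). The same held for Foxj1 (4.92, adjusted p = 0.139) and Rsph1 (4.33), while Cfap161, Stoml3, Ak7, Tmem212, Chat and Slc18a3, with at most 2 reads in one group, also kept their sign but have fitted folds that depend on the prior count. In the other direction, Adra1a, Calm2, Chrm1, Erbb4, Ncan and Syt1 were called in this fit and not in the fit without pool. Counts higher in PV fell by list as well: potassium channels of the voltage-gated list from 22 to 9, vesicle release genes from 21 to 3, glycolysis and TCA cycle genes from 26 to 4, excitatory markers from 12 to 2, peptides from 10 to 4 and cilia genes from 18 to 6. Counts higher in VIP fell for peptide receptors from 16 to 10, for acetylcholine genes from 10 to 4 and for collagens and other matrix genes from 11 to 2, while 14 cadherins were called higher in VIP against 17. The part of pool and that of the 1 EXC library cannot be told apart.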

How the data were processed

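Bulk RNA-seq of sorted cortical cells was used as the read counts per gene that the authors deposited. Per the file headers a count is the number of reads aligning uniquely to a gene model, and the second deposited value is an RPKM adjusted by a size factor, used here only to compare levels between genes. The submitters' processing notes name GSNAP and the build GRCm38; their versions, strand setting and gene annotation were not given in the sources used here. Of 36528 gene IDs listed, 31126 were given a symbol, 31049 from RefSeq and 77 from GENCODE. The IDs without one held 0.844% to 2.98% of reads of a PV or VIP library and were tested by ID.

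Counts were fitted in edgeR 4.0.16 (R 4.3.3, limma 3.58.1) with TMM scaling, its default expression filter by subtype, a term for each subtype and sex, and all 24 libraries, so that SST and EXC add to the filter, the scaling, the sex term and the estimate of spread. PV minus VIP was tested by the quasi-likelihood F test with Benjamini-Hochberg adjustment over all 14890 genes. Summed marker levels and read shares were compared by exact two-sided permutation over the 924 ways to divide 12 libraries. On simulated counts of 14637 genes for this comparison, 27.6% of 98 genes changed 2-fold and 76.8% of 99 genes changed 4-fold were called, with 8 false calls. Far fewer genes were changed there than were called in the data. The adjusted p depends on that share, so these rates need not hold for the real comparison. No pair of replicates agreed within counting noise.

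The compared groups and the 47 gene lists were chosen with earlier results of these data known, so the lists are descriptions and carry no test of their own. Secisbp2l was left out of its list as a listing error. Genes were named by rule: the 15 largest called folds in each direction at 10 CPM or more with no overlap, the class genes Pvalb, Vip, Sst, Gad1, Gad2 and Slc17a7, up to 5 called members a direction and 2 not called of each list at 2 CPM or more, and up to 5 genes of the sex and pool terms; some of these are not reported here. Alternatives were DESeq2 1.42.0, other size factors and filters, robust estimation, fewer libraries, the pool as a covariate, thinning to 1548907 total reads and leaving out each library. Leaving out PV replicates 1 and 6, and the list of lung genes, were chosen after seeing the data. Counting intervals and floors cover counting error only.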

Additional observations from a re-analysis of the deposited data

Results flagged for a closer look

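Among named genes and summed marker lists, 379 groups of 6 libraries were checked for a single library whose gap to its nearest neighbour exceeded Dixon's 95% critical value, which chance passes in about 1 of 20 groups, and 21 groups held such a library. VIP replicate 5 accounted for 5 of them, with Slc17a7 at 24.1 CPM, Sst at 17.7 CPM, Col15a1 at 35.5 CPM, Nefl at 39.2 CPM and Scg2 at 521 CPM. VIP replicate 2 accounted for 4, with the activity-regulated genes Npas4 at 82.6 CPM and Nr4a1 at 81.1 CPM, Cbln2 at 303 CPM and Esrrg at 28.2 CPM. PV replicate 3 also accounted for 4, with Igf1 at 37.8 CPM, Npy1r at 5.03 CPM, Syt6 at 5.87 CPM and Chrna3 at 2.52 CPM, all genes that were higher in VIP. In PV replicate 4 the summed choroid plexus markers reached 76.2 CPM, most of it Ttr at 68.8 CPM, Rpl5 reached 124 CPM and Cnr1 stood at 77.7 CPM. PV replicate 1 stood apart for Sp8 at 2.24 CPM and Dlx6 at 11.2 CPM, PV replicate 5 for Cntnap4 at 202 CPM and PV replicate 6 for Shisa6 at 20.4 CPM.

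A signal outside the comparison was that of lung epithelial genes, which summed to 395 CPM in VIP replicate 1 and 334 CPM in VIP replicate 3, against at most 2.15 CPM in PV.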

How the results depend on the processing

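Counts of called genes moved by over 1.5 times under 2 settings. With the pool as a covariate 762 genes were called higher in PV and 1579 higher in VIP, and with male libraries only 1029 and 1467, where fewer libraries were fitted. The other settings, apart from leaving out single libraries, gave 2611 to 3416 genes higher in PV and 2890 to 4840 higher in VIP, the upper ends from DESeq2 and the lower from thinning. Leaving out 1 library at a time gave 2843 to 3263 and 3604 to 4134. The difference in mitochondrial share ran from 21.9 to 29.6 percentage points when 1 library was left out, and the sex term called 0 genes with DESeq2, with at least 5 CPM in 6 libraries, with robust estimation and without each library in turn, the settings in which it was run. With the pool as a covariate the log2 fold change changed sign for Abat (-0.51), Atp1b1 (-0.31), C1qa (0.11), Ccdc39 (0.86), Chrnb2 (-1.07), Col3a1 (1.11), Cox6a2 (-1.59), Dagla (-0.16), Kcnj10 (-3.16), Scn4b (-1.45), Slc17a7 (-1.13), Slc32a1 (-0.79) and Sox9 (-2.12). Col3a1 did so also with VIP of POOL7099 only (0.50). The cause was not tested. Without sex as a covariate 98 genes were called between the VIP pools, against 68. No paired analysis was possible because the labels give no replicate numbers. The lower depth of PV limits genes near 0 reads.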

Other observations

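Long noncoding RNAs took 5.77% ± 1.93 of nuclear reads in VIP and 1.75% ± 0.619 in PV (SD, n = 6 each). The ranges, 3.6% to 8.53% and 1.19% to 2.83%, did not overlap. The SST libraries lay near PV at 1.82% ± 0.252, and the EXC libraries spread from 1.67% to 11.1%. Of the genes called higher in VIP 11.1% were annotated as long noncoding RNAs, against 2.42% of those called higher in PV and 6.84% of all tested. Meg3, an imprinted noncoding RNA chosen here after its values were seen, took 1.21% ± 0.527 of nuclear reads in VIP and 0.149% ± 0.1 in PV. The median annotated span was 34.8 kb for genes higher in VIP and 25 kb for genes higher in PV, against 24.7 kb for all tested.

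The Rgs family, whose members shorten G protein signals, was also looked at after seeing the data. Of 18 members tested, 10 were higher in VIP, among them Rgs8, Rgs10 and Rgs12, and 3 in PV, which were Rgs22, Rgs4 and Rgs2, with a median log2 fold change of -0.76. Axonemal dynein heavy chains of the Dnah family, which drive cilia, were higher in PV for 9 of 11 members and in VIP for none. Cfap genes, also of cilia, were higher in PV for 13 of 21 and in VIP for 1. The shares over all genes tested were 21.9% higher in PV and 26.7% higher in VIP.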
